A study of Mus musculus with 38 samples.

Results

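Sites of phosphorylated CREB in the liver of fed mice were compared with sites of total CREB in the same tissue. Each antibody had 1 deposited peak list, with 7669 phospho-CREB sites and 13142 CREB sites. These 20811 sites were taken from 278566 regions in the 11 peak lists used here. A site was called matched when it had at least 1 base in common with a site of the other list, and sites were ranked within each list by their highest tag density, the peak height that the authors' caller reported.

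CREB, the cAMP response element binding protein, is a transcription factor that binds the cAMP response element. When glucagon raises cAMP in the liver, protein kinase A phosphorylates a serine of CREB, and the phosphorylated protein recruits the acetyltransferases CBP and p300. In fasting liver CREB is known for its part in the induction of gluconeogenic genes. H3K27ac, the acetylated form of a lysine of histone H3, is a product of these enzymes and is found at active promoters and enhancers.

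The liver samples were from C57BL/6 mice, with no age stated in the labels. The phospho-CREB group (3 samples) and the CREB group (3 samples) came from mice with free access to food, and their titles also carry 24 h. Both antibodies were rabbit monoclonals, the phospho-specific one raised to serine 133. Chromatin was crosslinked, sonicated and immunoprecipitated from whole liver, so the cell type that carried a site is not resolved. The lists set beside these were liver phospho-CREB and CREB after a 24 h fast (3 samples each), liver H3K27ac after 10 h and 24 h of fasting and in fed mice (3 samples each), and 4 lists from isolated C57BL/6 hepatocytes. Those hepatocytes, the main cell type of liver, were given 10 nM glucagon for 1 h (CREB, 2 samples), 10 nM glucagon with 1.7 uM corticosterone for 1 h (CREB, 2 samples, and the glucocorticoid receptor GR, 2 samples), or no hormone (CREB, 1 sample). The names of the phospho-CREB and CREB lists each give 2 of the 3 libraries of the group. No value per library was available, so no comparison below has a replicate error or a test. Intervals are 95% Wilson intervals for shares and Newcombe intervals for differences of shares. They cover counting error only, and neighbouring sites are not independent.

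The phospho-CREB list was shorter and its sites were narrower. Its sites covered 3.77 Mb with a median width of 425 bp, against 7.53 Mb and 487 bp for CREB. Density ran from 0.852 to 2764 in the phospho-CREB list, with a median of 4.69. In the CREB list it ran from 0.795 to 51733, with a median of 8.13. The 10th, 100th and 1000th sites had densities of 466.6, 112.5 and 23.9 for phospho-CREB, and of 7622, 302.5 and 52.1 for CREB. The number of reads behind either list is unknown and the scaling of the density is not stated, so the densities of the lists describe each list and are not comparable between them.

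Matching was asymmetric. In the phospho-CREB list 3934 of 7669 sites were matched, which is 51.3% of the list (interval 50.2 to 52.4%). In the CREB list 3854 of 13142 sites were matched, which is 29.3% of the list (28.6 to 30.1%). This left 3735 phospho-CREB sites and 9288 CREB sites unmatched. The matched sites formed 4000 pairs, because 64 phospho-CREB sites met more than 1 CREB site and 132 CREB sites met more than 1 phospho-CREB site. With the CREB list reduced to its 7669 densest sites, 37% of phospho-CREB and 35.8% of CREB sites were matched. Both lists had nearly as many matched sites, so the unequal shares restate the list lengths. At equal length the shares had to be close.

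Matched sites were mostly centred on each other. The median shared stretch was 484 bp and the median distance between midpoints was 44 bp, and 77.6% of midpoints lay within 100 bp. A phospho-CREB site lay wholly inside its CREB partner in 62.4% of pairs, while a CREB site lay wholly inside its phospho-CREB partner in 8.39%. At the edge of the matching rule, 24 pairs shared fewer than 50 bases and the smallest stretch was 2 bases. Just outside it, 6.88% of unmatched phospho-CREB sites had a CREB site within 1 kb, and 3.91% of unmatched CREB sites had a phospho-CREB site within 1 kb. The median distance from an unmatched site to the nearest site of the other list was 66 kb for phospho-CREB and 118.7 kb for CREB. Such distances depend on the length of the other list, and no reference distance was computed.

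Matched sites were wider and denser than unmatched sites in both lists. In the phospho-CREB list the median width was 536 bp for matched and 340 bp for unmatched sites, and the median density was 12.8 for matched and 3.41 for unmatched sites. In the CREB list the median width was 705 bp for matched and 439 bp for unmatched sites, and the median density was 14.3 for matched and 7.04 for unmatched sites. A wider site has more room to meet another one, and its part in the matching was not tested beyond the use of windows of equal width, given in the closing section.

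Density rank in the phospho-CREB list was related to presence in the CREB list over the whole range. Cut into 10 equal groups by density, called deciles, the phospho-CREB list had 99.2% of its densest decile at a CREB site, 96.9% of the second, 92.3% of the third and 82.5% of the fourth. The share was 53.2% in the fifth decile and 30.8% in the sixth, and lay between 10.6% and 18% in the last 4. Of the 1000 densest phospho-CREB sites, 991 were matched (99.1%, 98.3 to 99.5%), and 756 of them had a partner among the 1000 densest CREB sites.

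In the CREB list the share fell steeply after the upper end. The densest decile was matched at 86.9% and the second at 38.9%, and deciles 3 to 6 lay between 18.9% and 26.0%. The seventh decile stood at 27.3% (25.0 to 29.8%), above its neighbours at 18.9% and 21.1%, and the last decile was matched at 13.7%. Of the 1000 densest CREB sites 93.9% were matched (92.2 to 95.2%), followed by 49.9% of ranks 1001 to 2000 and 26.3% of ranks 2001 to 5000. Dense phospho-CREB sites were thus nearly all listed for CREB, while most CREB sites below the upper decile were not listed for phospho-CREB.

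**Figure D1:**
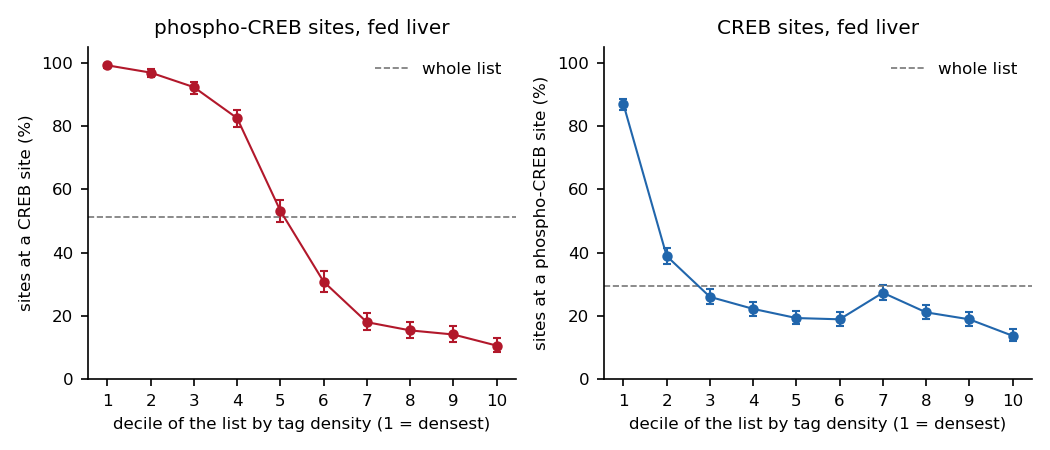
Share of sites matched to the other list (y axis, percent) by decile of the list in order of tag density (x axis, 1 is densest), for phospho-CREB (left) and CREB (right) in fed liver; bars are 95% Wilson intervals and the dashed line is the share of the whole list. The phospho-CREB share stays above 80% for 4 deciles, while the CREB share is 38.9% by the second decile.

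Where sites were matched, their ranks went together, with a Spearman rho of 0.91 over 3934 phospho-CREB sites and their partners. This is a description across sites of a pair of lists, with no p. At sites with H3K27ac in fed liver rho was 0.78 (n = 1408), and elsewhere it was 0.90 (n = 2526). In phospho-CREB deciles 5 to 10 fed H3K27ac lay at no more than 4.66% of matched sites. The acetylated sites thus covered a narrower range of ranks, and these rho values are not directly comparable. Of the 766 phospho-CREB sites in the upper decile by rank, 760 were matched and 668 of those partners (87.9%) were in the upper decile of the CREB list. Of the 1314 CREB sites in the upper decile, 1142 were matched and 659 of those partners (57.7%) were in the upper decile of the phospho-CREB list. The lowest partner of an upper-decile phospho-CREB site had CREB rank 4271, and the lowest partner of an upper-decile CREB site had phospho-CREB rank 3955.

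The 5 densest phospho-CREB sites were also the 5 densest CREB sites, and the only ones above a density of 1000 in the phospho-CREB list. The first was at chr10:121199926-121200489 (coordinates as deposited, genome build mm9), with a phospho-CREB density of 2764 and a CREB density of 51733 at CREB rank 1. The next was at chr14:46432325-46432759, with a phospho-CREB density of 1906 and a CREB density of 28518 at CREB rank 5. The sites at chr7:97590191-97590738 (phospho-CREB density 1561, CREB rank 3), chr13:45493727-45494197 (1556, CREB rank 4) and chrX:141949419-141949788 (1069, CREB rank 2) completed the set. All 5 were listed for phospho-CREB and CREB in fasted liver, and only the chromosome 7 site lay at H3K27ac or at a hepatocyte CREB site. No gene was assigned to any site, since no annotation of build mm9 was used here.

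The CREB list had 33 sites above a density of 1000, and 24 of them (72.7%, 55.8 to 84.9%) were matched. This is a lower share than the 915 of 967 (94.6%, 93.0 to 95.9%) at CREB ranks 34 to 1000. The partners of the 24 had phospho-CREB ranks from 1 to 912. Of the 33 sites, all were in the fasted CREB list, 23 were in the fasted phospho-CREB list, 5 lay at fed H3K27ac and 2 lay at a CREB site of untreated hepatocytes. At ranks 34 to 1000, 728 of 967 lay at fed H3K27ac and 881 at a CREB site of untreated hepatocytes. The densest CREB sites were thus rarely acetylated and rarely present in hepatocytes, unlike the ranks just below them, while the fasted CREB list held 959 of those 967 as well.

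The ranks of matched sites fell along a pair of branches that join at low density. Sites with a density above 1000 were kept in this ranking. Sites were ranked anew among matched sites, and the log2 of CREB rank over phospho-CREB rank was taken for the 1000 densest matched phospho-CREB sites. A boundary of 0.5, a 1.41-fold rank ratio, was set after the values were seen, and 90 of the 1000 sites lay between 0.25 and 0.75. On the first branch, 322 sites ranked lower for CREB than for phospho-CREB. On the other, 678 sites ranked evenly or higher for CREB. All 678 are called evenly ranked below, although 39 had a log2 ratio of -1 or less and 175 had one from -1 to -0.5.

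The branches differed in lists that played no part in the ranking. CREB sites of untreated hepatocytes were found at 13.7% (10.3 to 17.8%) of the sites that ranked lower for CREB and at 95.6% (93.8 to 96.9%) of the evenly ranked sites, against 26.0% of the whole phospho-CREB list. With glucagon these shares were 13% for sites ranked lower for CREB and 95.7% for evenly ranked sites (22.3% of the whole list), and with both hormones 10.2% and 95.6% in the same order (22.2% of the whole list). Hepatocyte GR sites ran the other way, at 42.5% (37.3 to 48.0%) of the sites ranked lower for CREB and 7.23% (5.51 to 9.43%) of the evenly ranked sites, against 14.6% of the whole list. Among matched sites of the densest phospho-CREB decile, untreated hepatocyte CREB was found at 69.9% and hepatocyte GR at 18.4%. The hepatocyte CREB libraries used the same antibody as the liver CREB libraries.

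In liver the branches were closer to each other. Phospho-CREB of fasted liver was found at 97.8% of the sites ranked lower for CREB and 75.4% of the evenly ranked sites (38.5% of the whole list). CREB of fasted liver was found at 98.8% of the sites ranked lower for CREB and 100% of the evenly ranked sites (52.5% of the whole list). Fed H3K27ac lay at 61.8% of the sites ranked lower for CREB and 72.4% of the evenly ranked sites (18.8% of the whole list). After 10 h of fasting H3K27ac lay at 87.9% of the sites ranked lower for CREB and 82.9% of the evenly ranked sites (39.7% of the whole list), and after 24 h at 65.8% of the sites ranked lower for CREB and 76.0% of the evenly ranked sites (20.1% of the whole list). Among matched sites of the densest phospho-CREB decile, fed H3K27ac lay at 71.2%, fasted phospho-CREB at 89.9% and fasted CREB at 99.6%. Median widths were 743.5 bp for sites ranked lower for CREB and 751 bp for evenly ranked sites.

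The sex chromosomes moved with the branches. Of the 322 sites ranked lower for CREB, 134 (41.6%) were on X and 75 (23.3%) on Y, against 13 (1.92%) on X and 2 (0.295%) on Y among the 678 evenly ranked sites. The whole phospho-CREB list had 12.9% of its sites on X and 1.64% on Y. With X and Y set aside at the same rank ratios, 113 sites ranked lower for CREB and 663 ranked evenly. Untreated hepatocyte CREB sites were then found at 25.7% of the sites ranked lower for CREB and 96.7% of the evenly ranked sites. GR sites were found at 38.9% of those ranked lower for CREB and 6.64% of those ranked evenly. When ranks were also drawn anew without X and Y, the share at untreated hepatocyte CREB sites was 41.2% (n = 233) for sites ranked lower for CREB and 96.5% (n = 767) for evenly ranked sites. With ranks by z-score on all chromosomes it was 21.3% for sites ranked lower for CREB and 91.6% for evenly ranked sites.

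**Figure D2:**
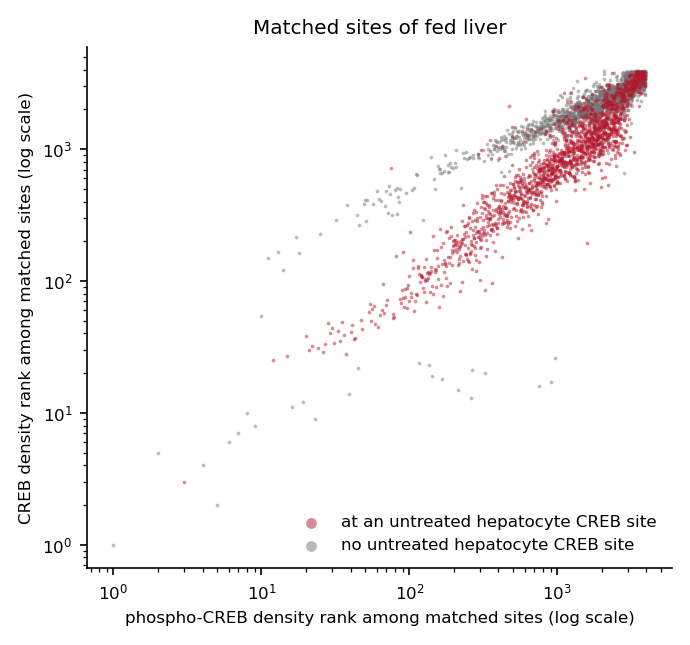
Each point is one of 3934 matched phospho-CREB sites of fed liver, by its phospho-CREB density rank (x axis) and the rank of its CREB partner (y axis), both among matched sites on log scales with 1 the densest. Red points lie at a CREB site of untreated hepatocytes and grey points do not; the upper branch, lower in CREB rank, is mostly grey and the branch along the diagonal is mostly red.

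The share changed steeply across the boundary, which had been set after the values were seen. The share at untreated hepatocyte CREB sites was 97.9% at log2 rank ratios from -0.5 to 0 (n = 328), 95.6% from 0 to 0.5 (n = 136), 18.6% from 0.5 to 1 (n = 129), 12.7% from 1 to 1.5 (n = 110) and 7.23% above 1.5 (n = 83). The share at GR sites climbed over the same bands through 6.71%, 14.7%, 38.8%, 44.5% and 45.8%. At the opposite end, 39 sites with a ratio of -1 or less were found at untreated hepatocyte CREB sites in 61.5% of cases, below the 98.9% of the next band (n = 175). With sites of density over 1000 left out of both lists, the share for all evenly ranked sites was 98.7% (n = 672). Without X and Y, the share at untreated hepatocyte CREB sites was 99.2% from 0 to 0.5 (n = 130) and 32.7% from 0.5 to 1 (n = 52). It was then 22.2% from 1 to 1.5 (n = 36) and 16% above 1.5 (n = 25).

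**Figure D3:**
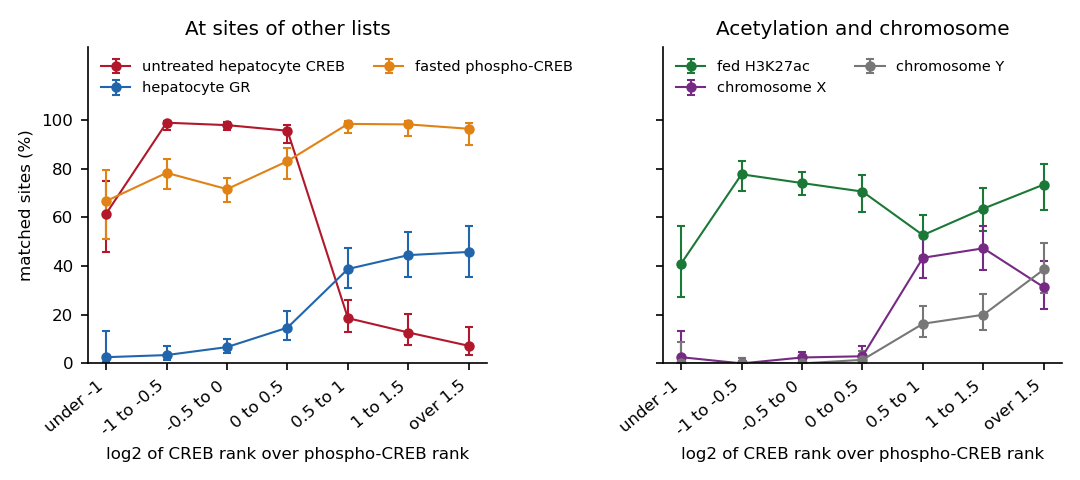
Share (y axis, percent) of the 1000 densest matched phospho-CREB sites at regions of other lists (left) and at fed H3K27ac or on chromosomes X and Y (right), by log2 of CREB rank over phospho-CREB rank among matched sites (x axis; positive means ranked lower for CREB). Bars are 95% Wilson intervals, and sites on X and Y are included. Untreated hepatocyte CREB is 95.6% in the band from 0 to 0.5 and 18.6% in the band from 0.5 to 1.

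Among phospho-CREB sites of the upper decile, the largest drop in rank was at chr19:5836489-5843891, a 7403 bp region at phospho-CREB rank 474 whose CREB partner had rank 4271. Of the next 4, 3 were on X and 1 on chromosome 5, and all 5 were in both fasted liver lists. The chromosome 19 site was in all 3 hepatocyte CREB lists, unlike most sites ranked lower for CREB, and chrX:51137578-51139808 was in the untreated list and the list with both hormones. The other 3 were in no hepatocyte CREB list. Among CREB sites of the upper decile, the largest drop was at chr12:40949328-40950549, with CREB rank 1003 and phospho-CREB rank 3955. That site and the next 4, on chromosomes 5, 17, 13 and 19, were in all 3 hepatocyte CREB lists and in the fasted CREB list, and none of the 5 was in the fasted phospho-CREB list.

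Unmatched phospho-CREB sites were found less often than matched ones in each of the 9 other lists. H3K27ac of fed liver lay at 1408 matched sites (35.8%, 34.3 to 37.3%) and 30 unmatched sites (0.803%, 0.563 to 1.14%), the unmatched share being 1.57% when 500 bp windows around midpoints replaced the sites. After 10 h of fasting it lay at 69.6% of matched and 8.17% of unmatched sites, and after 24 h at 38.1% of matched and 1.04% of unmatched sites. Phospho-CREB of fasted liver was found at 61.6% of matched and 14.1% of unmatched sites, and CREB of fasted liver at 88.1% of matched and 15.1% of unmatched sites. Untreated hepatocyte CREB was found at 43.2% of matched and 7.93% of unmatched sites. Of the unmatched phospho-CREB sites 35.5% were in at least 1 of the 9 other lists, against 95.1% of matched ones. Density moved with these shares. In the fourth phospho-CREB decile fed H3K27ac lay at 22.9% of matched and 8.21% of unmatched sites, and in deciles 5 to 10 it lay at no more than 4.66% of matched and 0.557% of unmatched sites. CREB of fasted liver stayed further apart at given density, at 81.6% of matched and 27.6% of unmatched sites in the fifth decile and 38.3% of matched and 7.88% of unmatched sites in the last.

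The densest unmatched phospho-CREB sites did recur in fasted liver. The densest was at chrY:2794377-2794745, with a density of 128.9 and rank 67, followed by chr8:86280493-86281038 (density 76.0, rank 198), chr13:111392905-111393498 (57.4, rank 318) and chr16:21282068-21282409 (53.7, rank 356). These 4 were all listed for phospho-CREB after 24 h of fasting. The sites on chromosomes Y, 8 and 13 were also listed for CREB after 24 h of fasting, and the chromosome 16 site was not. The fifth, chr11:3048049-3048313 (density 45.4, rank 450), was in neither fasted list, and it alone lay at fed H3K27ac.

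Over the whole lists, unmatched CREB sites differed from unmatched phospho-CREB sites in that many were acetylated. Density was not held equal in this contrast, and most unmatched phospho-CREB sites were in the less dense deciles. In the fourth decile of each list fed H3K27ac lay at 72.3% of unmatched CREB and 8.21% of unmatched phospho-CREB sites. In the eighth, ninth and last CREB deciles it lay at 4.44%, 0.657% and 0.529% of unmatched sites. H3K27ac of fed liver lay at 36.5% of matched and 39.9% of unmatched CREB sites (38.9% of the whole list), a difference of -3.42 percentage points (-5.23 to -1.6). With the CREB list reduced to its 7669 densest sites, the acetylated share of unmatched CREB sites was 68.8%. After 24 h of fasting H3K27ac lay at 39.0% of matched and 40.5% of unmatched CREB sites (40.1% of the whole list), a difference of -1.5 points whose interval (-3.33 to 0.341) includes 0. The 10 h list held more of the matched class, at 69.8% of matched and 48.9% of unmatched sites (55.0% of the whole list), and with 47777 regions it was longer than the fed H3K27ac list of 29917. Untreated hepatocyte CREB was found at 43.9% of matched and 50.9% of unmatched CREB sites (48.9% of the whole list). With glucagon the shares were 41.5% of matched and 47.5% of unmatched sites (45.7% of the whole list), and with both hormones 40.9% of matched and 50.3% of unmatched sites (47.5% of the whole list). Hepatocyte GR was found at 22.2% of matched and 10.3% of unmatched sites (13.8% of the whole list).

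Fasted liver kept the classes of the CREB list apart. Phospho-CREB after a 24 h fast was found at 61.1% of matched and 6.41% of unmatched CREB sites (22.4% of the whole list), and CREB after a 24 h fast at 87.8% of matched and 38.6% of unmatched sites (53.0% of the whole list). Of the 3704 unmatched CREB sites at fed H3K27ac, 92.2% were at a CREB site of untreated hepatocytes, 59.9% were in the fasted CREB list and 1.08% were in the fasted phospho-CREB list. The densest unmatched CREB sites were at chr16:10832472-10832927 (density 10641, rank 9), chr6:128778781-128779365 (7120, rank 11) and chr1:74061287-74061888 (3383, rank 18). Of these 3, all were in the fasted CREB list, and only the chromosome 1 site was in the fasted phospho-CREB list and at fed H3K27ac.

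**Figure D4:**
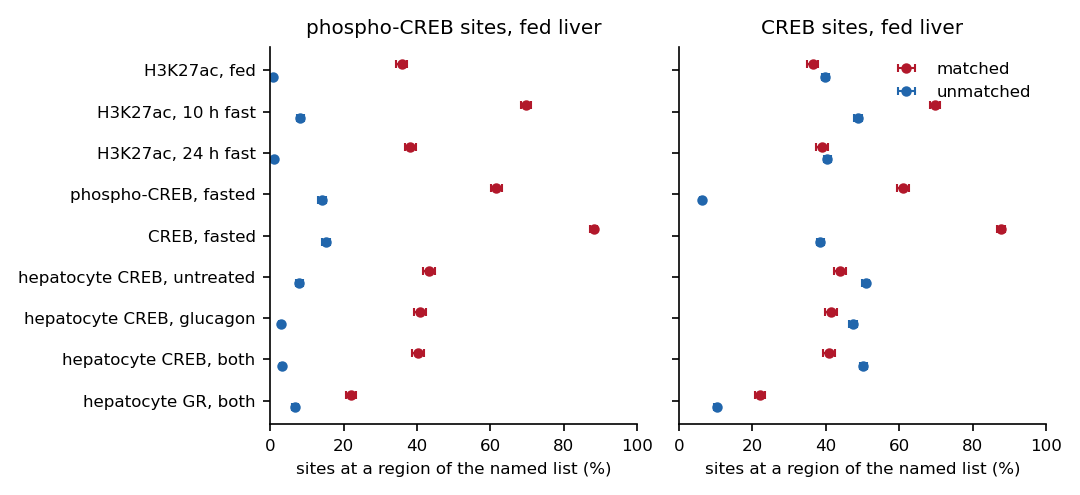
Share of matched (red) and unmatched (blue) sites at regions of 9 other lists (x axis, percent), for phospho-CREB (left) and CREB (right) of fed liver; bars are 95% Wilson intervals. Matched phospho-CREB sites exceed unmatched ones in all 9 lists, while unmatched CREB sites are above matched ones for fed H3K27ac and hepatocyte CREB, and the classes are within counting error for 24 h H3K27ac.

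The small difference over the whole CREB list held larger and unlike differences at given densities. In the densest decile, fed H3K27ac lay at 76.5% of 1143 matched and 72.7% of 172 unmatched sites. In deciles 2 to 6, a range chosen after the values were seen, it lay at 30.8% of 1647 matched and 67.9% of 4924 unmatched sites, a difference of -37.0 points (-39.6 to -34.4). Untreated hepatocyte CREB sites were found at 32.4% of matched and 81.5% of unmatched sites in those deciles, a difference of -49.0 points (-51.5 to -46.5). In deciles 7 to 10 fed H3K27ac lay at 2.16% of 1064 matched and 5.63% of 4192 unmatched sites. Below the densest decile, fed H3K27ac was thus less frequent at CREB sites with phospho-CREB than at CREB sites without it, down to the eighth. In the ninth the shares were 2.02% of matched and 0.657% of unmatched sites, and in the last 1.11% of matched and 0.529% of unmatched sites, with overlapping intervals in both. The longer 10 h H3K27ac list did not show this. Its difference in deciles 2 to 6 was 1.84 points (-0.506 to 4.09). In deciles 7 to 10 it lay at 39% of matched and 14.7% of unmatched sites.

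In the same deciles 2 to 6, several other lists held more of the matched sites. Hepatocyte GR was found at 32.2% of matched and 13% of unmatched CREB sites, and fasted phospho-CREB at 68.4% of matched and 3.37% of unmatched sites. Fasted CREB was found at 95.7% of matched and 55.8% of unmatched sites. H3K27ac after 10 h of fasting lay at 78.7% of matched and 76.9% of unmatched sites, and after 24 h at 33.8% of matched and 69.0% of unmatched sites. Chromosome X held 30.2% of matched and 4.75% of unmatched sites. Matched sites were not narrower or less dense here, with a median width of 651 bp for matched and 537 bp for unmatched sites and a median density of 13.8 for matched and 11.1 for unmatched sites. Without X and Y the share at fed H3K27ac was 33.9% for matched sites of these deciles. With the CREB list reduced to its 7669 densest sites and cut into deciles anew, it was 56.5% for matched and 78.7% for unmatched sites.

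**Figure D5:**
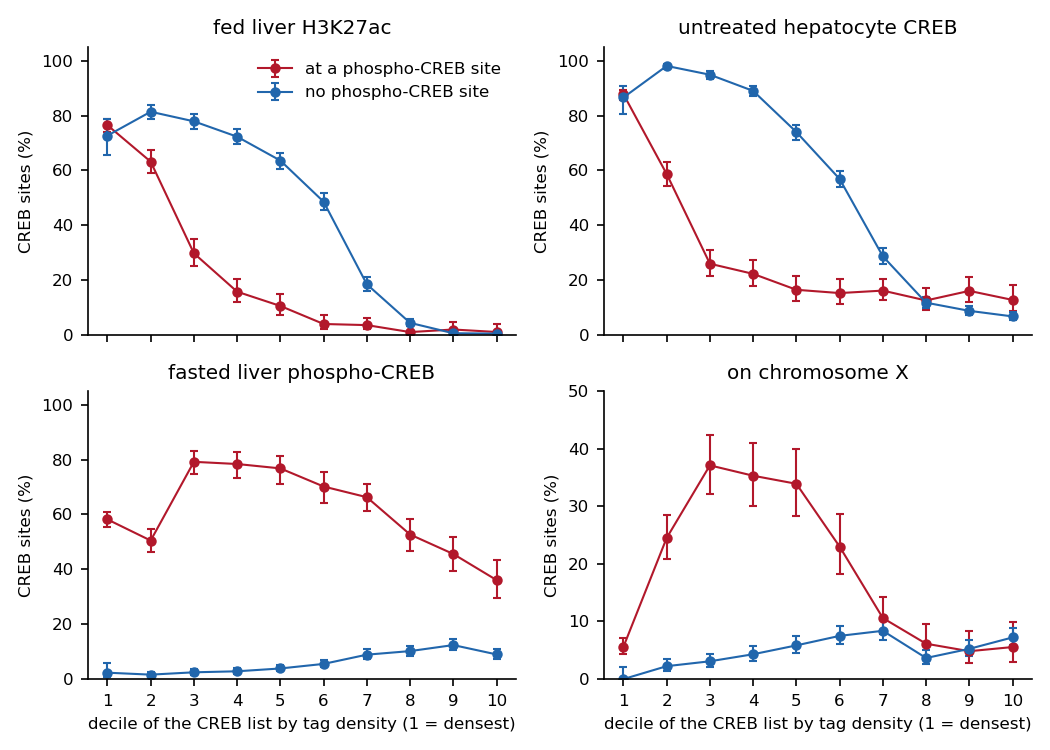
Share of CREB sites of fed liver (y axes, percent) at fed H3K27ac, at untreated hepatocyte CREB, at fasted phospho-CREB and on chromosome X, by decile of the CREB list in order of density (x axes, 1 is densest), for CREB sites with (red) and without (blue) a phospho-CREB site; bars are 95% Wilson intervals. In the third decile fed H3K27ac lies at 29.8% of matched and 77.9% of unmatched sites.

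Fasted liver had its own pair of lists, matched in the same way. Of fasted phospho-CREB sites, 97.9% of the densest decile and 11.7% of the last decile lay at a fasted CREB site. Of fasted CREB sites, 60.1% (57.2 to 62.9%) of the densest decile and 25.0% of the second lay at a fasted phospho-CREB site. The fed list had 86.9% and 38.9%. The fasted lists were shorter, with 6812 phospho-CREB and 11339 CREB sites, and the depth of all 4 is unknown. The fed and fasted shares are therefore not directly comparable. In deciles 2 to 6 of the fasted CREB list, H3K27ac of 24 h fasted liver lay at 20.7% (18.7 to 22.9%) of matched and 73.3% (72.0 to 74.7%) of unmatched sites. These samples were separate from the fed ones.

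Over all densities, sites on the sex chromosomes were matched more often than sites on autosomes. Chromosome X held 986 phospho-CREB sites (12.9% of that list), of which 70.4% were matched, and 1129 CREB sites (8.59% of that list), of which 56.6% were matched. Chromosome Y held 126 phospho-CREB sites, 88.1% matched, and 144 CREB sites, 73.6% matched. Over the 19 autosomes 47.7% of phospho-CREB sites were matched, with a range of 35.8 to 59.8% between chromosomes, and 26.2% of CREB sites, with a range of 21.3 to 34.7%. At given density the phospho-CREB list was mixed. Chromosome X held more of the matched than of the unmatched sites in deciles 1 to 6 and 9, and less in deciles 7, 8 and 10. Its shares were 25.9% of matched and 13.4% of unmatched sites in the fourth decile. In the eighth they were 3.39% of matched and 9.55% of unmatched sites.

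Matched phospho-CREB sites with fed H3K27ac (1408) and without it (2526) also differed in the other lists. Untreated hepatocyte CREB was found at 79.8% of acetylated and 22.8% of other matched sites, while fasted phospho-CREB was found at 52.1% of acetylated and 66.9% of other matched sites. H3K27ac after 24 h of fasting lay at 97.7% of acetylated and 4.95% of other matched sites, and after 10 h at 97.1% of acetylated and 54.3% of other matched sites. Hepatocyte GR was found at 20.9% of acetylated and 22.6% of other matched sites, with overlapping intervals.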

How the data were processed

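Peak lists of immunoprecipitated chromatin were used. Per the submitters' processing notes, CASAVA 1.8 and build mm9 were used; the aligner and the peak caller settings do not appear in the labels or file headers. Of 13 deposited lists, 11 were matched to groups, and 2 lists with 10 value columns matched no sample and were not used. Per the file headers, each deposited region has a running number whose meaning is not stated, a p-value, a z-score, an average density that was not used, and the highest tag density, a signal. How the authors scaled the signal and the score is not stated. The log10 of the deposited p-value lies within 0.000786 of that of the two-sided normal tail of its z-score. The depth behind the lists is unknown.

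Sites were matched by at least 1 shared base, a site with several partners taking the one sharing most bases, and widths are end minus start plus 1. Matching was tested on simulated data of 2000 and 1600 sites, where 700 of 700 planted pairs were recovered. Named sites were, per list, the 5 densest matched, the 5 densest unmatched, and the 5 largest rank drops among upper-decile sites, with sites on chromosome 18 counted but never named, and the text gives the leading ones. The sites, lists and rules were chosen with earlier results of these data known. Genes, motifs and gene lists were planned and not run, since no mm9 genome was used here. Alternatives were other overlap rules, equal windows, equal list length, no X and Y, no densities over 1000, and ranking by z-score. Overlaps and ranks were computed in Python 3.11.15 with pandas 2.3.3 and numpy 2.4.6, rank correlations with SciPy 1.17.1, and plots with matplotlib 3.10.9.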

Additional observations from a re-analysis of the deposited data

How the results depend on the processing

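Of 51 recalculated values in the 8 main comparisons, 31 stayed within the interval of the value reported, 20 moved beyond it and 0 reversed. With 50% of the shorter site shared, fed H3K27ac lay at 32.7% of matched phospho-CREB and 35.6% of unmatched CREB sites. With gaps of up to 500 bp, 54.5% of phospho-CREB and 32.0% of CREB sites were matched, and 42.6% of unmatched CREB sites were acetylated. With 500 bp windows, 96.8% of the 1000 densest phospho-CREB sites were matched and 1.57% of unmatched phospho-CREB sites were acetylated. With the CREB list reduced to the length of the phospho-CREB list, 37.0% of phospho-CREB and 35.8% of CREB sites were matched, rho was 0.82, and 48.8% of matched phospho-CREB and 68.8% of unmatched CREB sites were acetylated. Without X and Y, 47.7% of phospho-CREB and 26.2% of CREB sites were matched, rho was 0.92, and 37.7% of matched phospho-CREB and 41.0% of unmatched CREB sites were acetylated. Of the 1000 densest phospho-CREB sites, 97.2% were matched without densities over 1000 and 91.9% when ranked by z-score, where rho was 0.66. Except where an alternative shortens a list or leaves out sites by its construction, the cause was not tested.

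Among results added after the data were seen, the share at fed H3K27ac in CREB deciles 2 to 6 ran from 26.0 to 56.5% for matched and from 46.5 to 78.7% for unmatched sites, higher for unmatched sites in each of 7 settings. The share at untreated hepatocyte CREB ran from 11.8 to 41.2% for sites ranked lower for CREB and from 91.6 to 98.7% for evenly ranked sites. No paired analysis was possible because each antibody has 1 list with no value per library, and for the same reason no replicate could be left out. Depth is unknown, so a site absent from a list may have been below its detection.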
